A study of Mus musculus with 8 samples.

Results

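The interferon regulatory factors are a family of transcription factors that share a DNA-binding domain and bind GAAA repeats in the promoters of interferon-responsive genes. Members were chosen by symbol from the gene lists of the deposited matrices, which gave *Irf1*, *Irf2*, *Irf3*, *Irf5*, *Irf7*, *Irf8* and *Irf9*, 7 of 30406 gene IDs listed for every library. Interferon-γ signals through JAK kinases to factors that bind GAS sites and induce *Irf1*. Type I and type III interferons assemble a complex that holds IRF9 and binds interferon-stimulated response elements (ISRE). IRF3, IRF5 and IRF7 are activated by phosphorylation after nucleic acid or Toll-like receptor sensing and induce interferon genes. IRF2 competes with IRF1 for the same sites, and IRF8 is a lineage factor of myeloid cells. In islets, IRF1 is known as a mediator of the cytokine response of β-cells.

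Islets of male C57BL/6 mice (C57BL6/J in the study's methods), 12 to 16 weeks of age, were profiled by droplet single-cell RNA-sequencing, in which each captured RNA molecule carries a unique molecular identifier (UMI). Islets of 10 mice were pooled for each of 2 replicates and divided over 4 conditions, which gives 8 libraries. Islets were left untreated, or exposed for 18 h ex vivo to IFN-γ at 150 U/mL with IL-1β at 10 U/mL (cytokines), to the same cytokines with 2 mM NMMA, an inhibitor of nitric oxide synthases (cytokines plus NMMA), or to NMMA alone. All animals were wild type, and a replicate is a pool, so p-values of the tests within a class rest on the spread between 2 pools. Tests with library as a block take out differences between whole libraries, so their p-values do not measure that spread.

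Of 17426 deposited barcodes 10876 were kept, 937 to 2149 in a library, and a library held 26549922 to 50731370 UMIs. Clustering without the *Irf* members gave 6344 β-cells, 643 α-cells, 326 δ-cells, 324 macrophages, 283 endothelial cells and 173 mesenchymal cells, named from fixed marker lists. All 9 β-cell markers were detected in the β-cell sum of every library, and all 10 macrophage markers in every macrophage sum. RNA of other cell types was present in each class. Macrophage markers summed to 47.5 to 71.2 CPM (UMIs scaled to the total of the class in its library) in untreated β-cells. They summed to 68.9 to 123 CPM with cytokines and 92.0 to 189 CPM with cytokines plus NMMA, against at least 14746 CPM in macrophages. The endothelial sum of cytokines plus NMMA replicate 1, from 14 cells, held 1051 CPM of macrophage markers with 10 of 10 detected. Its 190 UMIs of *C1qa*, *C1qb*, *C1qc* and *Lyz2* all lay in 2 of the 14 cells, and their source was not tested. δ-cells and mesenchymal cells of cytokines replicate 1 numbered 8 each and were left out of the tests. Different clusters held most of a class with and without cytokines. Untreated endothelial cells lay in cluster 15 (47 and 50 cells) and cytokine-treated ones mostly in cluster 20 (14 and 23 cells). Untreated β-cells lay mostly in clusters 0 (1576 cells of replicate 1) and 2 (489 of replicate 2), and cytokine-treated ones in clusters 1 (1028 of replicate 1) and 3 (439 of replicate 2). α-, δ- and mesenchymal cells were largely divided in the same way at the second round of clustering. Untreated macrophages lay in cluster 13 (38 of 38 and 71 of 72), and 23 of 33 and 22 of 36 cytokine-treated ones in cluster 18. Pairs of libraries shared at most 5 deposited barcodes.

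In GRCm38, *Irf1* lies on chromosome 11 (53770014 to 53778374, plus strand), *Irf2* on chromosome 8 (46739732 to 46847458, plus strand), *Irf3* on chromosome 7 (44997648 to 45002848, plus strand) and *Irf5* on chromosome 6 (29526625 to 29541871, plus strand). *Irf7* lies on chromosome 7 (141262706 to 141266481, minus strand), *Irf8* on chromosome 8 (120736358 to 120756694, plus strand) and *Irf9* on chromosome 14 (55603571 to 55610030, plus strand). All 7 are protein-coding. The annotation overlaps *Irf9* with *Rnf31* and *Irf8* with *Gm20388* on the same strand, so reads in the shared stretches are ambiguous for these genes.

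Promoter sequences from 250 bases before to 50 bases after the transcription start were taken from RefSeq (GRCm38.p6), which had entries for all 7 members, 10 in all. They were searched on both strands for the GAS motif TTCNNNGAA, the ISRE core (GAAA, any 2 bases, GAAA) and the kappaB motif, none of which overlapped another where found. The 3 promoters with a match are shown, with the matched letters in capitals. *Irf7* and *Irf9*, whose RNA also rose with cytokines in β-cells, had no match and are not shown.
Irf1, chr11:53769764-53770063, plus strand: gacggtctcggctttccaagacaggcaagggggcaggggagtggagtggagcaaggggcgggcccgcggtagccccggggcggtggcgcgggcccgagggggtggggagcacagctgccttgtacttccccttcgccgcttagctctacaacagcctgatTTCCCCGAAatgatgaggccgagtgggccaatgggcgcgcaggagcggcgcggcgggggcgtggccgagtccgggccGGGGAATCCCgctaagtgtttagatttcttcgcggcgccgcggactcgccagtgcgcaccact
Irf2, chr8:46739495-46739794, plus strand: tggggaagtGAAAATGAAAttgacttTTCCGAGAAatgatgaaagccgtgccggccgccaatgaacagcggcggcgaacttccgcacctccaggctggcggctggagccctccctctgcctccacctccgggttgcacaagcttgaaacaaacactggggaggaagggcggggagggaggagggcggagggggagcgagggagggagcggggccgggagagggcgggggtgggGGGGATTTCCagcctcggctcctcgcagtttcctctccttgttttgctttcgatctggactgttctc
Irf8, chr8:120736108-120736407, plus strand: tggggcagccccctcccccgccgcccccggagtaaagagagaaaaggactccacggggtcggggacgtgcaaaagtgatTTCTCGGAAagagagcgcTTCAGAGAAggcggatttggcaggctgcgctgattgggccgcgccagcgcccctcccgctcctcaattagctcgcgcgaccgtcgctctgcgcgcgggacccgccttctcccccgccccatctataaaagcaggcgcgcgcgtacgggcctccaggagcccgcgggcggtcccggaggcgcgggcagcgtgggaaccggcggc
*Irf1* held a GAS match (TTCCCCGAA, first base at -90 from the start) and a kappaB match (GGGGAATCCC at -13). *Irf2* held an ISRE match (GAAAATGAAA at -241), a GAS match (TTCCGAGAA at -224) and a kappaB match (GGGGATTTCC at -17). *Irf8* held 2 GAS matches, TTCTCGGAA and TTCAGAGAA. These letters were not found in the windows of *Irf3*, *Irf5*, *Irf7* and *Irf9*, nor in the second entries of *Irf1* and *Irf8*, which have other start sites. Of 32851 RefSeq promoters of the same length, 8.30% held the GAS motif, 3.44% the ISRE core and 8.46% the kappaB motif. A match describes the letters of the window and shows neither binding nor a cause.

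To determine which cells expressed each member before cytokine exposure, levels in untreated islets were placed on 1 scale over all classes (CPM with joint TMM scaling, mean of 2 libraries, with no test). *Irf5* was at 174 CPM in macrophages and at 0 to 9.93 CPM in the other 5 classes, and 653 of its 781 UMIs over all conditions lay in macrophages (83.6%). *Irf8* stood at 336 CPM in macrophages and 51.3 CPM in endothelial cells, with no overlap between these, and at 2.71 CPM or less in mesenchymal, δ-, β- and α-cells. *Irf7* was also highest in macrophages (109 and 276 CPM in the libraries) and lowest in α-cells (4.53 and 5.07 CPM).

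The remaining members were spread more evenly. *Irf1* ranged from 11.3 CPM in mesenchymal cells to 41.6 CPM in endothelial cells. The endothelial libraries (29.2 and 54.0 CPM) enclosed those of β-cells (29.3 and 29.9 CPM) and overlapped δ- and α-cells. α-cells also overlapped δ-cells, β-cells and macrophages. *Irf2* ranged from 35.3 CPM in mesenchymal cells to 80.2 CPM in endothelial cells, where endothelial cells overlapped macrophages and macrophages overlapped δ- and α-cells. δ-cells lay above α-cells without overlap, and α-, β- and mesenchymal cells overlapped in order. *Irf3* lay between 20.6 and 28.7 CPM, with each class overlapping the next. *Irf9* was at 41.2 CPM in macrophages and at 10.9 to 16.04 CPM in the other 5 classes, each overlapping the next.

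**Figure D1:**
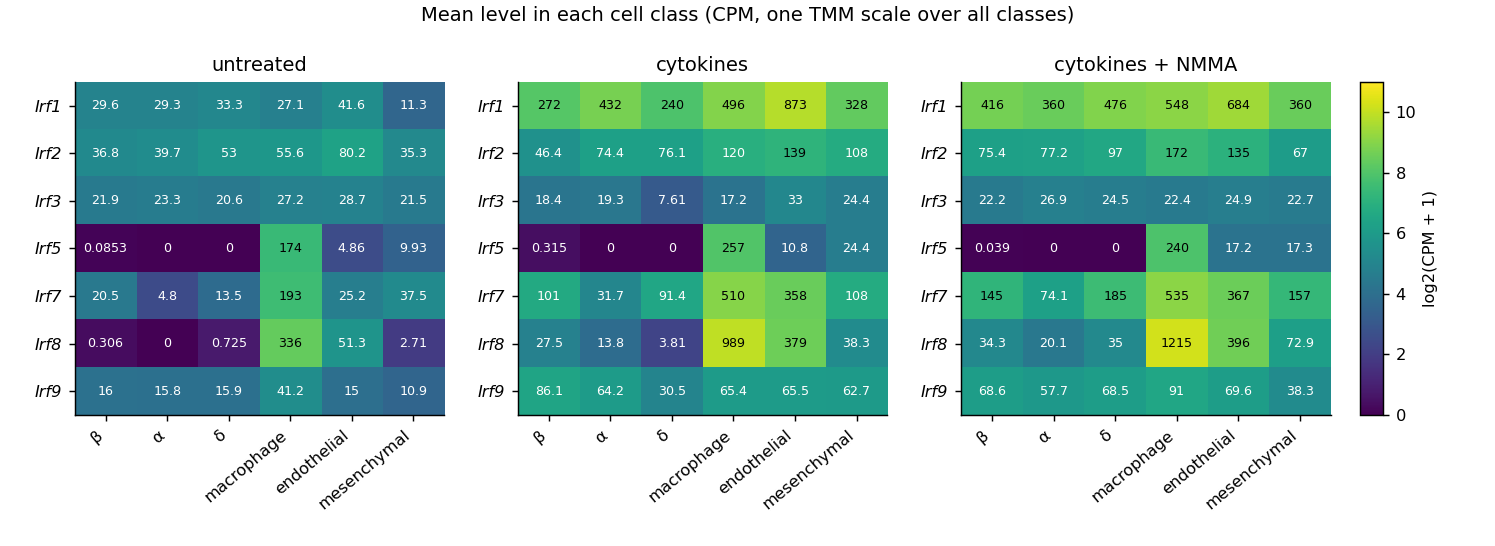
Mean level of each member (CPM with 1 TMM scale over all classes, shown as numbers, colour as log2(CPM + 1)) in 6 cell classes for untreated islets, cytokines and cytokines plus NMMA. *Irf5* and *Irf8* stood out in untreated macrophages (174 and 336 CPM), and *Irf3* was the member that differed least between panels in β-cells (21.9, 18.4 and 22.2 CPM).

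To assess how cytokines changed the family in β-cells, the UMIs of all β-cells of a library were summed and compared (edgeR, CPM with TMM scaling within the class). *Irf1*, *Irf7*, *Irf8* and *Irf9* were several-fold higher with cytokines than untreated, *Irf2* was slightly higher, and *Irf3* was not called. *Irf5* was at 0.230 CPM or less in all 8 libraries and was not tested. Thus 5 of the 6 members tested were called higher and 0 lower, where 23.7% of 12777 genes were called higher and 46.2% in either direction. The median log2 change of the 6 members was 2.38, against 0.00103 over all genes tested.

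*Irf1*, the activator induced by interferon-γ, was at 19.8 and 20.5 CPM in untreated β-cells, 186 and 187 CPM with cytokines, 294 and 277 CPM with cytokines plus NMMA, and 20.97 and 20.05 CPM with NMMA alone. The 4 cytokine-exposed libraries lay far above the other 4. The change with cytokines was 9.27-fold (log2 3.21 ± 0.13 SE, adjusted p = 9.2e-07), and with cytokines plus NMMA it was 14.2-fold (log2 3.82 ± 0.13, adjusted p = 3.06e-07). With cytokines plus NMMA, too, 5 of 6 members were called higher, where 12.9% of genes were.

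*Irf2*, which competes with *Irf1* product for its sites, was at 25.5 and 24.5 CPM untreated, 31.1 and 32.5 CPM with cytokines, 52.2 and 51.1 CPM with cytokines plus NMMA, and 27.1 and 24.3 CPM with NMMA alone. Both cytokine libraries lay above the untreated and NMMA libraries and below those of cytokines plus NMMA. The log2 change was 0.34 ± 0.12 with cytokines (adjusted p = 0.037) and 1.046 ± 0.12 with cytokines plus NMMA (adjusted p = 0.000292). The change with cytokines alone lost its call in 9 of 15 alternative settings. Scaling by total UMIs in place of TMM, which moved the median of all genes by -0.22, gave *Irf2* 0.12 (adjusted p = 0.419).

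*Irf7*, which amplifies interferon production, was at 9.59 and 18.4 CPM untreated, 80.7 and 57.5 CPM with cytokines, 122 and 76.4 CPM with cytokines plus NMMA, and 7.38 and 13.6 CPM with NMMA alone. Cytokine-exposed and other libraries did not overlap, although replicates differed more than for *Irf1*. The change was 5.003-fold with cytokines (log2 2.32 ± 0.46, adjusted p = 0.00902) and 7.18-fold with cytokines plus NMMA (log2 2.84 ± 0.47, adjusted p = 0.0087). Without cytokines replicate 1 the first change was 2.06 (adjusted p = 0.0551).

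*Irf9*, the DNA-binding subunit of the complex that type I interferons assemble, was at 9.87 and 11.97 CPM untreated, 64.6 and 53.5 CPM with cytokines, 45.8 and 48.2 CPM with cytokines plus NMMA, and 9.38 and 13.7 CPM with NMMA alone. Every library with cytokines lay above every library without. It was the member called with cytokines whose mean was higher without NMMA than with it, and that difference was not called (log2 0.33 ± 0.18, adjusted p = 0.238). The change with cytokines was 5.43-fold (log2 2.44 ± 0.20, adjusted p = 3.04e-05).

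*Irf8* was nearly undetected in untreated β-cells (0.0556 and 0.363 CPM, 2 and 6 UMIs) and was at 20.8 and 16.8 CPM with cytokines and 27.2 and 19.8 CPM with cytokines plus NMMA. NMMA alone gave 0 and 0.0621 CPM. The fitted log2 changes were 6.84 ± 0.51 (adjusted p = 4.39e-05) and 7.16 ± 0.51 (adjusted p = 4.66e-05). *Irf3*, the constitutive sensor-activated factor, was at 14.3 and 15.5 CPM untreated and 14.1 and 11.1 CPM with cytokines, so that the cytokine libraries lay just below. Its log2 change was -0.24 ± 0.15 (adjusted p = 0.235), and -0.46 (adjusted p = 0.0431) with total UMIs in place of TMM, again with the median of all genes at -0.22.

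**Figure D2:**
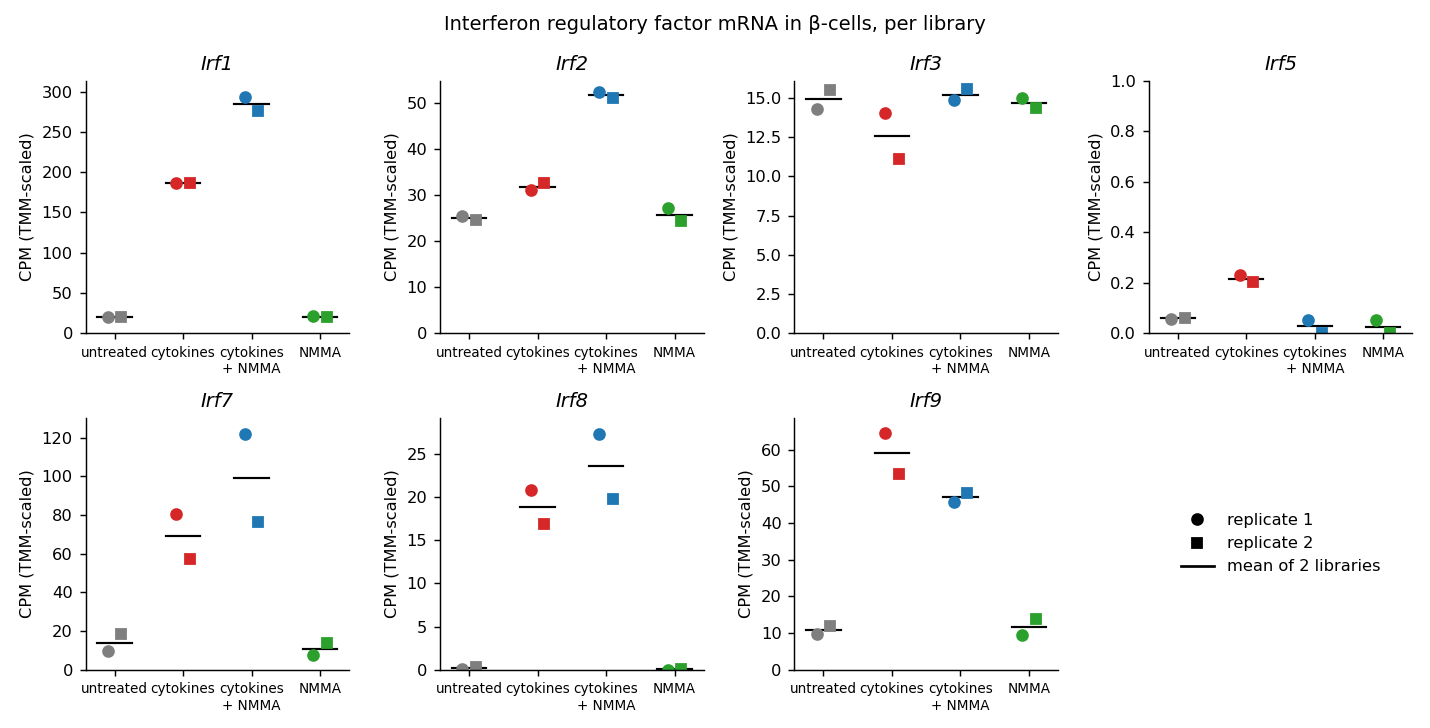
Level of each member in β-cells (CPM, TMM scaling within β-cells, linear axis from 0 in each panel) in the 8 libraries, with 1 point for each replicate and a bar at the mean of the 2. *Irf1* lay at 19.8 to 20.97 CPM without cytokines and at 186 to 294 CPM with them, while *Irf3* stayed between 11.1 and 15.5 CPM.

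To determine how inhibition of nitric oxide synthesis altered these levels, cytokines were compared with cytokines plus NMMA in β-cells. *Irf1* and *Irf2* were lower without NMMA, that is, 0.655-fold (log2 -0.61 ± 0.12, adjusted p = 0.0107) and 0.615-fold (log2 -0.70 ± 0.12, adjusted p = 0.00618). Thus 2 of 6 members were called lower and 0 higher, where 10.4% of 12777 genes were called lower. *Irf7* (-0.52 ± 0.44, adjusted p = 0.45), *Irf8* (-0.32 ± 0.32, adjusted p = 0.523) and *Irf3* (-0.27 ± 0.16, adjusted p = 0.255) did not pass the test, although *Irf7* was called lower without the filter on low counts (-0.53, adjusted p = 0.0152). The *Irf1* call was lost without cytokines replicate 1 (-0.61, adjusted p = 0.0637) and without cytokines plus NMMA replicate 1 (-0.56, adjusted p = 0.0649). NMMA alone gave 0 of 6 members called against untreated by edgeR and by DESeq2, with 0 at an unadjusted p under 0.05, in a comparison where 0% of all genes were called in β-cells.

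The β-cell levels are averages over cells, so the share of β-cells with a UMI of each member was counted after every cell was thinned to 9500 UMIs, which left out 66 and 86 untreated, 26 and 93 cytokine, and 17 and 85 cytokines plus NMMA cells. *Irf1* was detected in 16.6% and 18.8% of untreated β-cells, 62.2% and 64.2% with cytokines, and 81.2% and 79.8% with cytokines plus NMMA (32.6% and 38.7%, 80.4% and 78.4%, and 92.8% and 84.5% without thinning). *Irf9* was detected in 10.2% and 11.6%, 41.5% and 37.1%, and 34.8% and 37.7% of cells. *Irf7* was detected in 7.95% and 14.1%, 39.9% and 35.0%, and 56.5% and 47.8%. The conditions with and without cytokines did not overlap for any of these.

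*Irf8* was detected in 0% and 0.194% of untreated β-cells at this depth, where 0 of 1598 cells allows a share of up to 0.188%, in 11.99% and 10% with cytokines, and in 15.8% and 12.3% with cytokines plus NMMA. *Irf5*, the macrophage-enriched member, was seen in 0.16% or less of β-cells in every library. *Irf2* separated the conditions differently, since 22.5% and 21.3% of untreated and 21.9% and 24.8% of cytokine-treated β-cells held a UMI, ranges that overlapped (41.2% and 44.7%, and 46.7% and 47.5%, without thinning), against 39.1% and 36.1% with cytokines plus NMMA. *Irf3* was at 10.6% to 14.7% in all libraries.

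The number of members detected in a β-cell was counted as well. There was no test and no expectation from the shares of the single members, so the numbers of members per cell do not speak of co-occurrence. β-cells with no UMI of any member made up 47.4% and 43.0% untreated, 10.8% and 14.4% with cytokines and 5.91% and 8.47% with cytokines plus NMMA. Those with 3 or more members made up 2.07% and 3.10%, 27.7% and 27.7%, and 46.0% and 45.4%. *Irf7* was detected in 44.1% and 37.7% of cytokine-treated β-cells with *Irf1* and in 32.9% and 30.2% of those without. With cytokines plus NMMA the shares were 60.6% and 53.8% against 39.0% and 24.3%. Without cytokines the replicates went in opposite directions, untreated (6.04% and 20.6% against 8.33% and 12.6%) and with NMMA alone (5.17% and 13.9% against 6.13% and 13.1%). These shares were not tested.

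**Figure D3:**
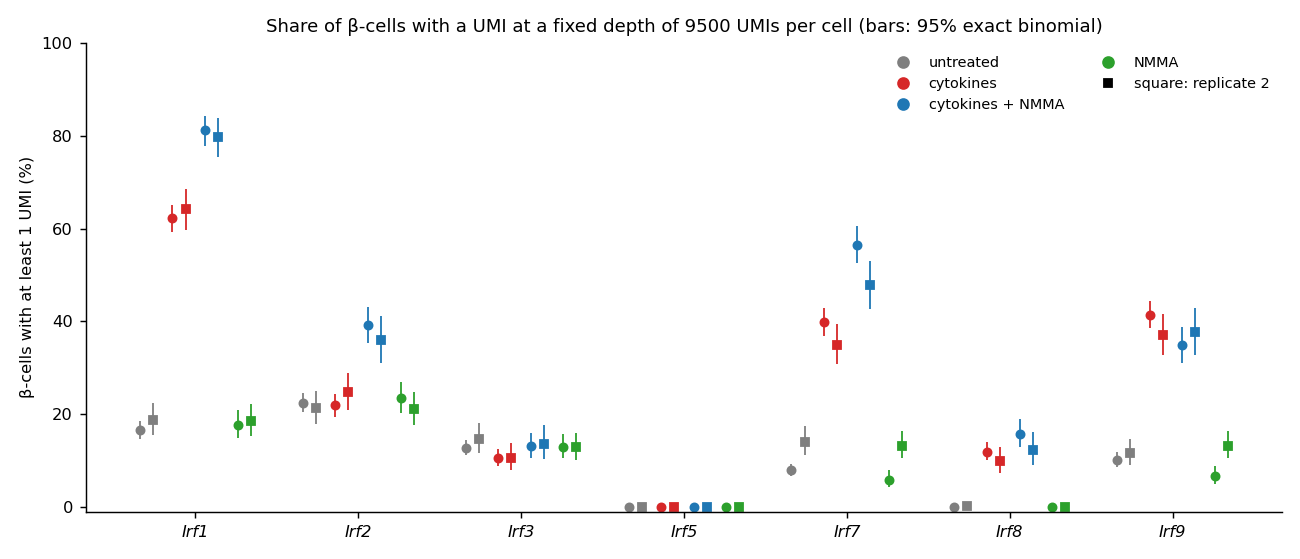
Percent of β-cells with at least 1 UMI of each member after thinning to 9500 UMIs per cell, with 1 point per library and 95% Clopper-Pearson intervals that cover counting error only. *Irf1* went from 16.6% and 18.8% untreated to 62.2% and 64.2% with cytokines and 81.2% and 79.8% with cytokines plus NMMA.

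β-cells exposed to cytokines were divided by whether a UMI of *Nos2*, the inducible nitric oxide synthase, was present after thinning, which 41.5% to 66.9% of cells of the 4 cytokine-exposed libraries had. Before thinning, cells with *Nos2* had a median of 25171 to 33408 UMIs and cells without it 23670.5 to 29612. *Irf1* was at 205, 188, 322 and 305 CPM in cells with *Nos2* (cytokines replicates 1 and 2, then cytokines plus NMMA replicates 1 and 2) and at 161, 179, 224 and 192 CPM in cells without, higher in 4 of 4 libraries. The log2 difference was 0.40 ± 0.09 (edgeR with library as a block, adjusted p = 0.00283). *Irf7* was at 90.8, 72.5, 127 and 83.1 CPM with *Nos2* and at 67.5, 51.3, 88.4 and 54.3 CPM without, also higher in 4 of 4 (log2 0.50 ± 0.09, adjusted p = 0.000356). These were the 2 of 6 members called, where 7.19% of 9777 genes were called in either direction. *Irf8* differed by 0.33 ± 0.19 (adjusted p = 0.357), *Irf9* by 0.19 ± 0.10 (adjusted p = 0.33) and *Irf2* by 0.17 ± 0.11 (adjusted p = 0.473). Without cytokines plus NMMA replicate 1 the *Irf1* difference was 0.37 (adjusted p = 0.0613).

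The same β-cells were divided by *Hspa1a*, a heat shock chaperone. Cells with it had a median of 22513 to 32148 UMIs before thinning and cells without it 24460 to 32257. *Irf1* was at 161, 142, 220 and 224 CPM in cells with *Hspa1a* and at 188, 208, 304 and 272 CPM in those without, lower in 4 of 4 libraries (log2 -0.38 ± 0.09, adjusted p = 0.0161). It was the 1 member of 6 called, where 6.23% of 9695 genes were called in either direction. Without cytokines replicate 2 the difference was -0.31 (adjusted p = 0.196) and without cytokines plus NMMA replicate 1 it was -0.35 (adjusted p = 0.0759). With total UMIs in place of TMM, *Irf2* (-0.44, adjusted p = 0.0296) and *Irf9* (-0.39, adjusted p = 0.0398) were called lower too.

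Next, the same comparison was made in α-cells, which secrete glucagon. *Irf1* was at 31.8 and 24.1 CPM untreated, 489 and 350 CPM with cytokines and 327 and 355 CPM with cytokines plus NMMA. Both cytokine conditions lay above untreated cells and overlapped each other. The change was 15.03-fold with cytokines (log2 3.91 ± 0.25, adjusted p = 2.03e-08). *Irf9* rose from 15.2 and 14.996 CPM to 72.5 and 52.3 CPM (log2 2.01 ± 0.27, adjusted p = 4.58e-05). *Irf2* was at 31.8 and 43.9 CPM untreated and 64.3 and 79.7 CPM with cytokines (log2 0.93 ± 0.24, adjusted p = 0.00905). *Irf8* had 0 UMIs in untreated α-cells, where 3 UMIs over both libraries was taken as the floor, and 16.5 and 10.3 CPM with cytokines, at least 9.79-fold higher, and at least 19.1-fold higher with cytokines plus NMMA (17.8 and 20.3 CPM).

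*Irf7* was the member that NMMA moved in α-cells. It was at 4.33 and 4.82 CPM untreated, 29.7 and 31.7 CPM with cytokines and 65.5 and 74.97 CPM with cytokines plus NMMA, with no overlap between the conditions. It was called higher with cytokines (log2 2.72 ± 0.38, adjusted p = 7.29e-05), and lower with cytokines than with cytokines plus NMMA (log2 -1.18 ± 0.27, adjusted p = 0.0091). Altogether 5 of 6 members were called higher with cytokines in α-cells, where 13.6% of 9695 genes were called higher, and 5 of 6 with cytokines plus NMMA, where 6.22% were. Between these conditions 1 of 6 was called lower, where 5.23% of genes were, and the *Irf7* call was lost by DESeq2 (adjusted p = 0.095) and without cytokines plus NMMA replicate 2 (-1.08, adjusted p = 0.0756). The *Irf2* call with cytokines was lost without untreated replicate 1 (0.73, adjusted p = 0.104), without cytokines replicate 2 (0.77, adjusted p = 0.0733), by DESeq2 (adjusted p = 0.074) and with total UMIs (0.46, adjusted p = 0.156), which moved the median of all genes by -0.50. With cytokines plus NMMA the *Irf2* call was lost without untreated replicate 1 (0.74, adjusted p = 0.178), without cytokines plus NMMA replicate 2 (0.84, adjusted p = 0.106) and by DESeq2 (adjusted p = 0.125).

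In δ-cells, which secrete somatostatin, cytokines were represented by replicate 2 alone, with 11 cells, taken to vary like the other groups. *Irf1* was at 42.1 and 36.2 CPM untreated, 295 CPM with cytokines and 536 and 577 CPM with cytokines plus NMMA. *Irf7* was at 11.3 and 20.7 CPM, 112 CPM, and 243 and 189 CPM. These were the 2 of 6 members called with cytokines (log2 2.90 ± 0.28, adjusted p = 1.73e-07, and 2.88 ± 0.43, adjusted p = 9.07e-05), where 4.66% of 9063 genes were called higher. With cytokines plus NMMA 5 of 6 were called higher, against 6.48% of genes. *Irf8* had 1 UMI in untreated δ-cells and 63 with cytokines plus NMMA, a ratio of 64.3 with a counting interval of 11.1 to 2580. The *Irf2* change with cytokines plus NMMA (0.87 ± 0.24, adjusted p = 0.0184) was lost without untreated replicate 1 (0.86, adjusted p = 0.163), untreated replicate 2 (0.86, adjusted p = 0.116) or cytokines plus NMMA replicate 1 (0.64, adjusted p = 0.278), by DESeq2 (adjusted p = 0.628) and with a minimum of 5 cells (adjusted p = 0.0561).

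In δ-cells 0 of 6 members were called between cytokines and cytokines plus NMMA by edgeR or DESeq2, where 1.27% of genes were called lower, and 4 had an unadjusted p under 0.05. With the replicate number as a block, that is, pairing libraries of 1 islet pool, *Irf1* was called lower with cytokines (-0.94, adjusted p = 0.0072).

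In macrophages, the resident immune cells of the islet, *Irf1* was at 24.9 and 25.5 CPM untreated, 477 and 472 CPM with cytokines, and 521 and 509 CPM with cytokines plus NMMA (log2 4.22 ± 0.28 and 4.33 ± 0.28, adjusted p = 3.5e-07 and 2.43e-07). *Irf8* was already at 366 and 264 CPM and was at 1158 and 736 CPM with cytokines (log2 1.60 ± 0.30, adjusted p = 0.00528) and 1413 and 888 CPM with cytokines plus NMMA (log2 1.87 ± 0.30, adjusted p = 0.00108). *Irf5*, tested in this class alone, was at 180 and 146 CPM untreated and 288 and 203 CPM with cytokines, which did not pass the test (log2 0.60 ± 0.25, adjusted p = 0.255). Thus 2 of 6 members were called higher with cytokines, where 3.82% of 5156 genes were, and 3 of 6 with cytokines plus NMMA, where 5.16% were. *Irf2* was the third of these (38.8 and 63.8 CPM untreated, 135 and 186 CPM with cytokines plus NMMA, adjusted p = 0.00928). *Irf3* was too low to be tested.

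Untreated macrophages of the 2 pools differed in *Irf7* (105 and 248 CPM), which was at 475 and 501 CPM with cytokines (log2 1.44 ± 0.43, adjusted p = 0.119). With the replicate block the pairing by pool raised the counts to 4 of 6 with cytokines, adding *Irf7* (1.52, adjusted p = 0.000229) and *Irf2* (1.12, adjusted p = 0.0237), and to 5 of 6 with cytokines plus NMMA, adding *Irf7* (1.49, adjusted p = 0.000185) and *Irf9* (1.10, adjusted p = 0.0227). *Irf7* was also called by DESeq2 in both comparisons (1.48 and 1.53, adjusted p = 0.0184 and 0.0151), without the filter on low counts, without either NMMA library and, with cytokines, without untreated replicate 2 (2.22, adjusted p = 0.00635), while *Irf8* with cytokines was then lost (1.38, adjusted p = 0.0595). *Irf2* with cytokines plus NMMA was lost without untreated replicate 1 (1.37, adjusted p = 0.0826) or cytokines plus NMMA replicate 2 (1.35, adjusted p = 0.105), and by DESeq2 (adjusted p = 0.0614). Between cytokines and cytokines plus NMMA 0 of 6 members were called by edgeR or DESeq2, with 0 at an unadjusted p under 0.05. Of all genes, 0.116% were called lower in this comparison.

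Endothelial cells, which line the islet capillaries, held the highest mean *Irf1* of the 6 classes with cytokines on the joint scale (873 CPM, against 240 to 496 CPM in the others). Within the class it was at 1325 and 1136 CPM with cytokines and 38.5 and 70.4 CPM untreated (log2 4.47 ± 0.30, adjusted p = 1.73e-08). *Irf7* was at 25.05 and 40.8 CPM untreated and 417 and 585 CPM with cytokines (log2 3.898 ± 0.58, adjusted p = 0.00683). *Irf8* was at 59.7 and 74.6 CPM and 660 and 413 CPM (log2 2.97 ± 0.28, adjusted p = 1.06e-06). *Irf9* was at 9.63 and 29.6 CPM and 89.3 and 94.6 CPM (log2 2.14 ± 0.43, adjusted p = 0.00463). Each pair of groups was separate. With cytokines 4 of 6 members were called higher, where 4.58% of 7505 genes were, and with cytokines plus NMMA 4 of 6, where 5.02% were. With cytokines plus NMMA *Irf8* was at 594 CPM in replicate 1, the library with 1051 CPM of macrophage markers, and at 519 CPM in replicate 2, with 23.7 CPM of them.

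The *Irf7* call in endothelial cells with cytokines was lost without untreated replicate 1 (3.62, adjusted p = 0.0977), untreated replicate 2 (4.34, adjusted p = 0.0568) or cytokines replicate 2 (3.63, adjusted p = 0.068), and that of *Irf9* without cytokines replicate 2 (2.10, adjusted p = 0.0683). With the replicate block, which pairs libraries of a pool, *Irf2* was called too, with cytokines (0.89, adjusted p = 0.0113) and with cytokines plus NMMA (0.82, adjusted p = 0.0184). The *Irf7* call with cytokines plus NMMA was lost without untreated replicate 1, untreated replicate 2 or cytokines plus NMMA replicate 2 (3.64, 4.37 and 3.72, adjusted p = 0.0909, 0.0532 and 0.0645). Between the cytokine conditions 0 of 6 were called by edgeR or DESeq2, with 0 at an unadjusted p under 0.05, and 0% of genes were called lower.

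In mesenchymal cells, where the lone cytokine library tested was taken to vary like the other groups, *Irf1* was at 13.6 and 13.05 CPM untreated, 404 CPM in that cytokine library and 533 and 362 CPM with cytokines plus NMMA (log2 4.88 ± 0.55, adjusted p = 0.000581, and 5.02 ± 0.51, adjusted p = 0.000184). This was 1 of 6 members called with cytokines, where 1.22% of 6007 genes were called higher, and 2 of 6 were called with cytokines plus NMMA, where 1.81% were. *Irf8* was the other, with 2 UMIs untreated and 39 UMIs, a ratio of 24.3 with a counting interval of 6.30 to 208. This *Irf8* call was lost by DESeq2 (adjusted p = 0.102) and without untreated replicate 1 (3.72, adjusted p = 0.129) or either cytokines plus NMMA library (4.51 and 4.70, adjusted p = 0.133 and 0.108), and with a minimum of 5 cells (adjusted p = 0.0527). *Irf7* was at 27.2 and 62.0 CPM untreated and 178 and 213 CPM with cytokines plus NMMA, which missed the threshold (log2 2.12 ± 0.50, adjusted p = 0.0524). It was called in 6 alternative settings (2.10 to 2.14), among them the pairing by replicate block (2.13, adjusted p = 0.00631) and the omission of either NMMA library. With cytokines *Irf8* (3.67 ± 1.04, adjusted p = 0.171) was called in 4 settings, without the filter on low counts, with a minimum of 5 cells, or without either NMMA library. Between the cytokine conditions 0 of 6 were called by edgeR or DESeq2, with 0 at an unadjusted p under 0.05, where 0% of genes were called lower. NMMA alone gave 0 of 6 members called in each of these 5 classes by edgeR, with 0 at an unadjusted p under 0.05, where 0.0166% of genes were called in mesenchymal cells and 0% in the other 4 classes.

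**Figure D4:**
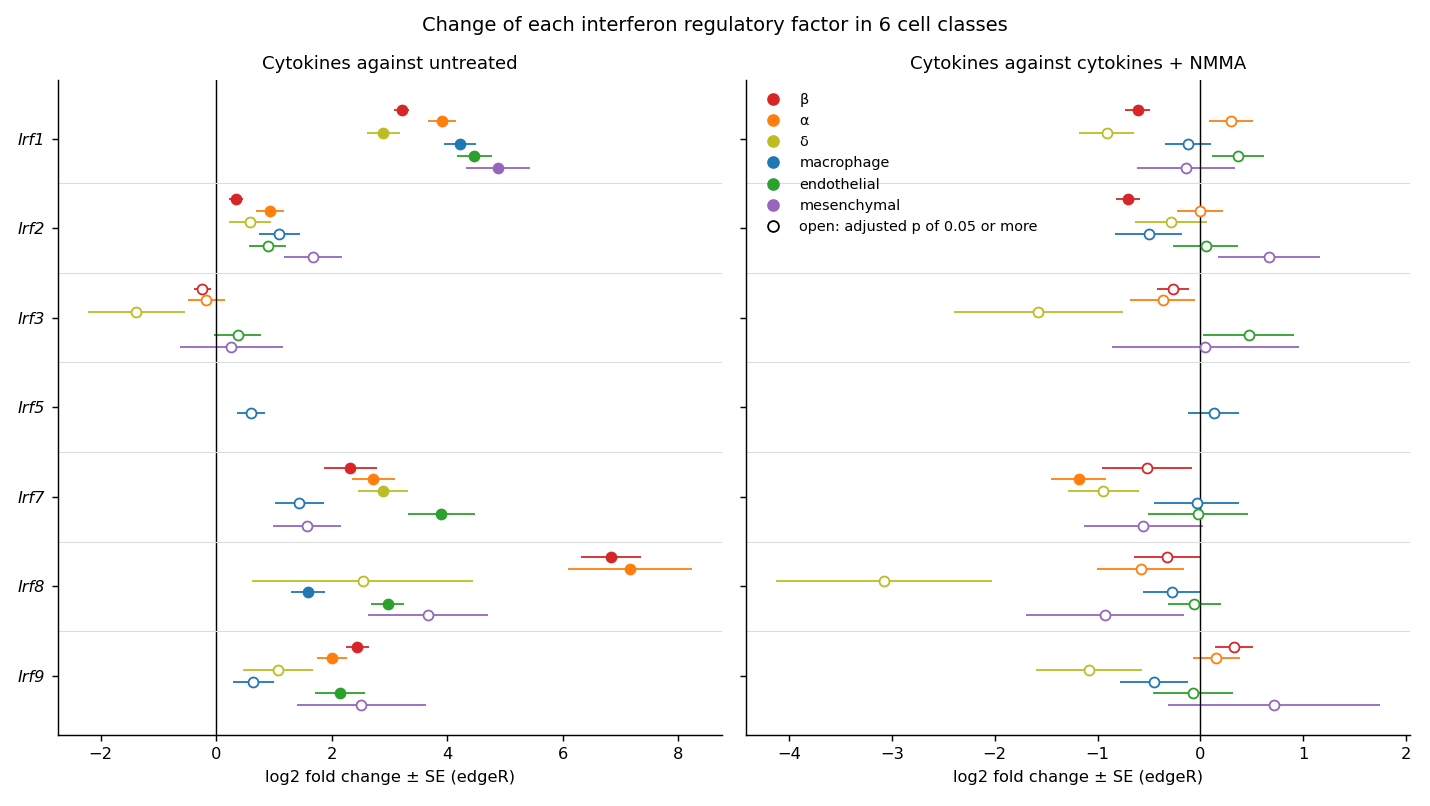
Log2 change of each member with its SE (edgeR) in 6 cell classes, for cytokines against untreated and for cytokines against cytokines plus NMMA, with filled points for an adjusted p under 0.05. *Irf1* was called higher in all 6 classes (2.90 to 4.88), and in the second comparison *Irf1* and *Irf2* in β-cells (-0.61 and -0.70) and *Irf7* in α-cells (-1.18) were called.

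Whether the response differed between cell types was tested directly as a difference of log2 changes from that of β-cells, with library as a block. The p-values of this test do not measure the spread between pools. The *Irf1* change was larger in endothelial cells by 1.42 ± 0.29 (adjusted p = 8.59e-05) and in macrophages by 1.24 ± 0.37 (adjusted p = 0.0265). *Irf7* changed more in endothelial cells by 1.79 ± 0.32 (adjusted p = 3.85e-06). *Irf8* changed less on the log2 scale than in β-cells in macrophages (-5.02 ± 0.43, adjusted p = 2.66e-28) and in endothelial cells (-3.60 ± 0.47, adjusted p = 6.16e-12), the 2 classes that held it before treatment. The size of these differences depends on the 2 and 6 *Irf8* UMIs of untreated β-cells. On the joint scale mean *Irf8* went from 336 to 989 CPM in macrophages, 51.3 to 379 CPM in endothelial cells and 0.306 to 27.5 CPM in β-cells. *Irf9* changed less in macrophages (-1.53 ± 0.42, adjusted p = 0.0117).

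Thus 3 of 7 members differed from β-cells in macrophages, where 4.39% of 12818 genes did, and 3 of 7 in endothelial cells, where 6.30% of 13265 did. For α-cells (4.27% of genes), δ-cells (2.88%) and mesenchymal cells (0.669%) 0 members were called by edgeR, with 2, 1 and 2 at an unadjusted p under 0.05, the nearest being *Irf1* in α-cells (0.72 ± 0.23, adjusted p = 0.053), which was called in 7 alternative settings (0.75 to 0.95). The macrophage *Irf1* difference was lost in 8 of 13 alternative settings, where it ranged from 0.94 to 1.21 with an adjusted p of 0.119 to 0.511. These were the omission of any 1 library other than NMMA replicate 2, and no filter on low counts. The macrophage *Irf9* difference was lost without cytokines replicate 1 (-1.31, adjusted p = 0.245) or untreated replicate 2 (-1.38, adjusted p = 0.405), and the endothelial *Irf1* difference without untreated replicate 1 (1.04, adjusted p = 0.137).

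Because macrophages held *Irf8* before treatment and stray macrophage RNA was present in β-cells, *Irf8* was set against macrophage genes in each class. In the 4 cytokine-exposed libraries there were 20.1 *Irf8* UMIs for each 100 UMIs of *C1qa*, *C1qb*, *C1qc* and *Lyz2* in β-cells (1545 against 7684), 52.8 in α-cells (94 against 178) and 6.48 in macrophages (1687 against 26030). In δ-cells there were 58.6 (65 against 111), in mesenchymal cells 103 (69 against 67) and in endothelial cells 324 (622 against 192). Of the 192 in endothelial cells, 190 lay in cytokines plus NMMA replicate 1, in 2 of its 14 cells. Of the 67 in mesenchymal cells, 66 lay in cytokines plus NMMA replicate 2, in 1 of its 18 cells. The δ-cell and mesenchymal sums included the libraries of 8 cells that were left out of the tests. In single libraries the values were 16.7 to 32.6 in β-cells and 4.70 to 9.49 in macrophages, which did not overlap. For each 100 *Irf8* UMIs there were 22.9 *Irf5* UMIs in macrophages (386 against 1687) and 0.647 in β-cells (10 against 1545). The values were 0 in α- and δ-cells, 3.54 in endothelial cells and 24.6 in mesenchymal cells. Endothelial cells, too, thus held much *Irf8* beside little *Irf5*, and the source of the *Irf8* UMIs in β-cells was not tested. A UMI of the 4 macrophage genes was found in 69.5% and 54.4% of cytokine-treated β-cells with *Irf8* and in 59.9% and 44.0% of those without. The shares with cytokines plus NMMA were 70.7% and 50.9% against 70.3% and 44.0%.

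**Figure D5:**
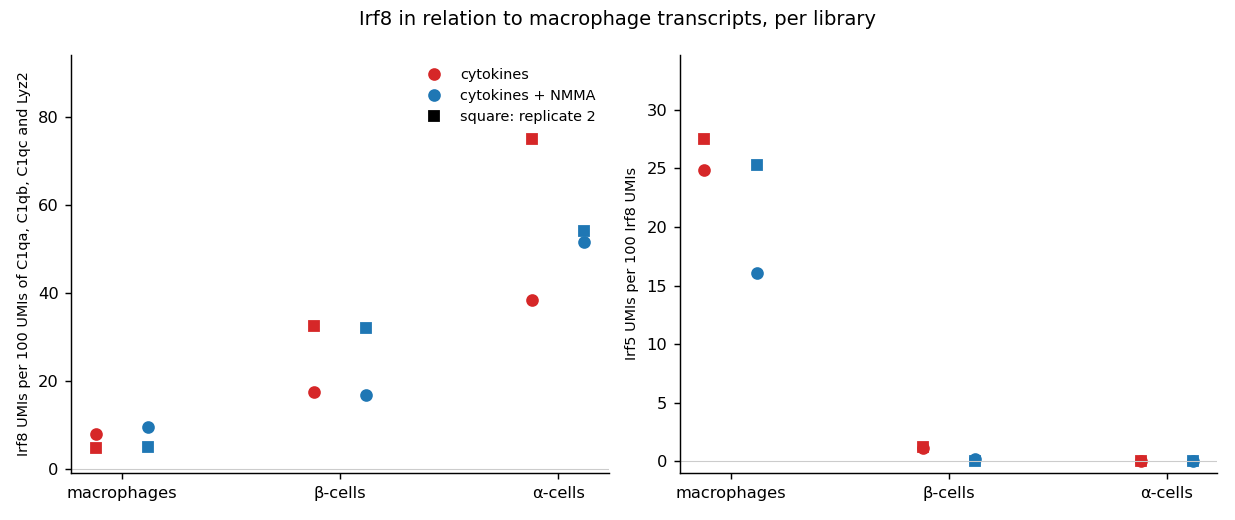
*Irf8* UMIs for each 100 UMIs of *C1qa*, *C1qb*, *C1qc* and *Lyz2* in macrophages, β-cells and α-cells (left), and *Irf5* UMIs for each 100 *Irf8* UMIs (right), with 1 point for each of the 4 libraries with cytokines. On the left β-cells lay at 16.7 to 32.6 and macrophages at 4.70 to 9.49.

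Genes of the same pathway were followed as lists, in β-cells beside the 23.7% of all genes called higher with cytokines. The lists were chosen with earlier results of these data known, so their counts describe the listed genes and are no independent test. Among 12 genes of the IFN-γ signal, 9 were called higher and 0 lower with cytokines in β-cells (median log2 change 0.98), led by *Socs1*, a feedback inhibitor of JAK kinases, at 0.973 and 0.725 CPM untreated and 38.7 and 33.0 CPM with cytokines (log2 5.34 ± 0.22, adjusted p = 9.38e-07). The lists hold no *Irf* member. Of 14 partners and activators of Irf proteins 12 were tested, 7 higher and 1 lower, led by *Batf2*, at 0.0278 and 0 CPM untreated and 5.48 and 5.18 CPM with cytokines, and *Batf*, at 0.0278 and 0 CPM and 1.07 and 0.404 CPM, both partners of Irf proteins in DNA binding.

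All 19 Irf1-type targets tested were called higher (median log2 change 4.57), where 23.7% of all genes were, led by *Cxcl9*, a T cell-attracting chemokine at 0 CPM in untreated and 229 and 124 CPM in cytokine-treated β-cells, and *Nos2*, at 0.0278 and 0 CPM and 193 and 162 CPM. Of 16 Irf9 and Irf7-type targets 14 were tested and 14 called higher (median 3.62), led by *Ifit2*, an antiviral protein that binds viral RNA, at 0.389 and 0.0604 CPM and 28.1 and 25.9 CPM, and *Isg15*, a ubiquitin-like modifier, at 0.695 and 1.21 CPM and 84.5 and 51.7 CPM. Against cytokines plus NMMA, 4 of 19 and 3 of 14 of these targets were lower and 0 higher, where 10.4% of all genes were called lower (medians -0.20 and -0.35, against -0.01 over all genes). The other lists went both ways in this comparison. Of the IFN-γ signal genes 2 of 12 were lower and 1 higher, and of the partners and activators 1 of 12 was lower and 2 higher.

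In α-cells 8 of 12 IFN-γ signal genes, 15 of 18 Irf1-type targets and 9 of 12 Irf9 and Irf7-type targets were called higher with cytokines, where 13.6% of all genes were. In macrophages the counts were 5 of 12, 14 of 19 and 4 of 14, where 3.82% of all genes were called higher, and in endothelial cells 7 of 11, 18 of 18 and 9 of 14, where 4.58% were. Of the partners, 4 of 11 were higher in α-cells, 1 of 9 in macrophages and 3 of 9 in endothelial cells. No list member was called lower in these 3 classes in this comparison.

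The members were further compared by the genes whose levels varied most like theirs over 46 sums of class and library (Pearson's r of log2(CPM + 1), a description, since the sums share libraries and conditions). *Irf1* varied most like *Gbp7* (r = 0.969), *Gbp4* (0.966) and *Gbp5* (0.959), guanylate binding proteins. *Irf7* varied most like *Oasl2* (0.945), *B2m* (0.935) and *H2-Q7* (0.927), and *Irf9* like *Samd9l* (0.894), *Parp14* (0.857) and *Cd274* (0.854). *Irf8* varied most like *B2m* (0.931), *Rab5c* (0.929) and *Slfn2* (0.912), and *Irf2* like *Rnf213* (0.859), *Ifi44* (0.812) and *Batf2* (0.807). *Irf5* varied most like *Ifi207* (0.942), *Msrb1* (0.935) and *Tnfrsf1b* (0.932). *Irf5* and *Irf8* shared 0 of these 3 genes with the list made with a pseudocount of 10. *Irf3* had no close match, the highest being *Isg20l2* (0.637), *Calcoco1* (0.597) and *Alg9* (0.573).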

How the data were processed

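Deposited files hold unnormalised UMI counts of genes by barcodes, which the authors obtained with Cell Ranger for 8 libraries, and the submitters' processing notes name the build mm10. Headers give software version 3.0.0 for replicate 1 and 6.0.0 for replicate 2, with 31053 and 32285 genes listed, and the 30406 shared IDs were used. The labels name the v2 kit and the paper's methods v3. The lower limit of genes per barcode was 200, the upper limit 5500 in replicate 1 and 6500 in replicate 2, and barcodes above 10% mitochondrial UMIs were dropped. Clustering used scanpy 1.11.5 and leidenalg 0.10.2 (2000 variable genes, without members, 30 components, 20 neighbours, resolution 1, 25 clusters), with names from fixed markers. Called doublets (200, 1.84%) were kept in the main analysis. Keeping the members among the clustering genes left 8051 of 8093 cells in the same class.

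UMIs were summed per class and library with at least 10 cells. The test was edgeR 4.0.16 under R 4.3.3, with filterByExpr, TMM scaling, a robust quasi-likelihood fit and no replicate block, and p was adjusted by Benjamini-Hochberg over all genes tested, with a threshold of 0.05. In place of the study's test over cells, libraries were the replicates. DESeq2 1.42.0 was an alternative. In data simulated with 100 genes changed 4-fold, the fit of cytokines against untreated recovered 92% in β-, 77% in α- and 32% in δ-cells, 78% for macrophages, 71% for endothelium and 3% for mesenchymal cells, and of 2-fold changes 50%, 14%, 3%, 13%, 19% and 0%. The simulation changed 100 genes by each fold, whereas 5900 of 12777 genes were called in β-cells with cytokines. Recovery in the data can therefore differ from these shares. Intervals and limits of shares cover counting error only, at 95%.

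Libraries of a replicate share an islet pool (study's methods). As a check of this pairing, differences between replicates correlated between conditions in β-cells with r of 0.658 to 0.750 over 12777 genes. The replicate number also coincides with the software version and gene list, so pool and version cannot be told apart.

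Members and lists were chosen with earlier results of these data known. The 2 list genes with the largest called change in β-cells and, for each member, the 3 genes most like it with a mean of at least 5 CPM are named, except items that are not reported here. Supplementary tables of comparisons were not used.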

Additional observations from a re-analysis of the deposited data

Results flagged for a closer look

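Results were set apart where a difference between cell classes passed its own test. They were also set apart where a signal outside the comparisons was found in more than 3 β-cells of a cytokine-exposed library. The log2 change with cytokines differed from that in β-cells in macrophages for *Irf1* (1.24), *Irf8* (-5.02) and *Irf9* (-1.53), and in endothelial cells for *Irf1* (1.42), *Irf7* (1.79) and *Irf8* (-3.60). Fitted changes of *Irf8* in β-cells start from 2 and 6 UMIs in the untreated libraries.

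The near-identical genes *Ifnl2* and *Ifnl3*, type III interferons whose receptor signals through *Irf9* product, were among 8 interferon ligands looked up, and reads of 1 may be counted for the other. A UMI of either was found in 6.87% of β-cells with cytokines in replicate 1 (78 of 1135 cells, 223 UMIs) and 0.873% in replicate 2 (5 of 573 cells). With cytokines plus NMMA the shares were 2.33% (15 of 643) in replicate 1 and 0.222% (1 of 451) in replicate 2. In untreated and NMMA β-cells 0 cells held one, which allows shares of up to 0.180% to 0.498%. The replicates differed, and with 2 libraries a group the difference between conditions was not called by edgeR in β-cells (0 of 2 ligands tested).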

How the results depend on the processing

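Of 55 changes or differences of members that were called, 37 were called under every alternative that gave a value and 0 reversed. A further 36 that were not called had another sign under some alternative. With the replicate block, which pairs libraries of 1 islet pool, members called rose from 2 to 4 (cytokines) and from 3 to 5 (cytokines plus NMMA) in macrophages and from 0 to 1 in δ-cells (cytokines against cytokines plus NMMA), and other counts stayed within 1.5 times. Without the filter on low counts these were 4, 5 and 1, mesenchymal cells had 2 with cytokines, also 2 with a minimum of 5 cells, and α-cells had 1 difference from β-cells, also 1 with members among the clustering genes. By DESeq2, α-cells had 0 between cytokine conditions and mesenchymal cells 1 with cytokines plus NMMA. With total UMIs the *Hspa1a* division gave 3.

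Leaving out 1 library in turn gave 3 to 5 called in β-cells with cytokines and 1 to 2 against cytokines plus NMMA, 0 to 1 in α-cells against cytokines plus NMMA, 2 to 4 in endothelial cells with cytokines, 1 to 2 and 1 to 3 in mesenchymal cells with cytokines and with cytokines plus NMMA, 0 to 1 and 1 to 3 differences of α-cells and macrophages from β-cells, 1 to 2 by *Nos2* and 0 to 1 by *Hspa1a*. The cause was not tested. Over all genes in β-cells, the replicate block moved calls from 5900 to 8042 with cytokines, from 2896 to 5213 with cytokines plus NMMA, from 2476 to 5215 between them, and from 0 to 450 with NMMA. Shares without thinning were higher for most members. With a pseudocount of 10 in place of 1, the 3 most alike genes shared 3 with the list given for *Irf3* and *Irf7*, 2 for *Irf1*, 1 for *Irf2* and *Irf9* and 0 for *Irf5* and *Irf8*, whose closest genes became *Rab7b* (0.971) and *Bmp2k* (0.946). With 2 libraries a group, and few δ- and mesenchymal cells, small changes are below what these sums can detect.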

Other observations

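At a depth of 1000 UMIs per cell, to which cells of every class could be thinned, *Irf8* was found in 30.6% and 16.4% of untreated and 45.2% and 50% of cytokine-treated macrophages, and in 8.51% and 8% of untreated and 53.3% and 39.1% of cytokine-treated endothelial cells, the latter from 15 and 23 cells. In β-cells the shares with cytokines were 1.59% and 0.882%, and no untreated β-cell of 1661 and 596 held one. In α-cells 0 of 47 and 0 of 68 cytokine-treated cells held one at this depth, too few cells to tell the β-cell shares from 0. Without thinning, 7 of 48 and 6 of 71 cytokine-treated α-cells held one. These shares were not tested.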
